A study of Mus musculus with 6 samples.

Results

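Mouse bone marrow progenitors carrying a lentivirus for Rad21 shRNA1, a short hairpin RNA against the cohesin gene Rad21, were compared with progenitors carrying the empty vector. The comparison used 4 of the 6 arrays of the series, found by their titles, and covered all 12393 genes that the array measured with a probe set of a single gene. The labels give the study's design as infection with hairpins against Rad21 and culture with cytokines. The other 2 arrays carried Rad21 shRNA2, a different hairpin against the same gene, and entered the estimate of the spread and a closing test between the hairpins.

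All groups came from C57/BL6 mice aged 6 to 8 weeks, and the labels name no mutation or transgene. Marrow was depleted of cells bearing lineage markers, spun with virus and polybrene on retronectin over 24 h, kept in 1 µg/mL puromycin overnight and sorted for live cells. The sorted cells then grew for 7 days at 10000 cells per mL in methylcellulose with cytokines that the labels do not name. The empty vector group (replicates 1 and 2) and the Rad21 shRNA1 group (replicates 1 and 2) differed only in the virus, per the labels. The shRNA1 group is a single hairpin, the sources used here give neither its sequence nor its promoter, and the number of animals pooled is not stated. Nothing in the labels says that replicates were separate cultures, so a p-value here reflects nothing wider than array-to-array spread, possibly technical. RNA was taken from whole cultures, in which fewer cells of a type and less RNA per cell cannot be told apart.

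Rad21 encodes the kleisin subunit that closes the cohesin ring. Cohesin holds sister chromatids together until mitosis and forms chromatin loops that bring enhancers to promoters. In methylcellulose, marrow progenitors divide and mature into colonies of granulocytes, macrophages, mast cells, red cells or megakaryocytes, depending on the cytokines. Neutrophil precursors make their granule proteins in order, with the primary granule enzymes made at the promyelocyte stage and the later granule proteins made as the cells mature.

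Levels below are log2 RMA intensities, and differences are log2 values of shRNA1 minus empty vector, ± the limma standard error (n = 2 and 2 arrays). A gene is said to rise or fall only where limma's Benjamini-Hochberg adjusted p over all genes was under 0.05. The array's median intensity lay between 100.2 and 104.9 on every array. Empty vector replicate 1 stood apart: its Gapdh 3′ control probe set exceeded the 5′ one by 2.42 log2 units against -0.078 to 0.017 elsewhere, and its Actb gap was 2.55 against 0.22 to 0.33. The empty vector arrays lay 0.321 from their mean (root mean square over genes), against 0.151 for the shRNA1 arrays. How far this array shapes the results was not tested beyond leaving it out. The plot of list medians shows each list without either control array.

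Rad21 itself stood at 11.14 and 10.49 in empty vector replicates 1 and 2 and at 9.63 and 9.14 with shRNA1. Both shRNA1 arrays lay below both empty vector arrays, in the direction the label states. The difference of -1.44 ± 0.30, or 37.0% of the control level, did not pass the test (adjusted p = 0.186, or 0.0547 with a replicate block). The difference was -1.11 without empty vector replicate 1 and -1.76 without replicate 2. The gene's other probe sets differed by -1.72 and -0.36. The other 12 measured genes of the cohesin ring and its regulators included none past the threshold. The 3 measured germline cohesin genes did not pass either (median -0.23). The highest difference in the cohesin list was that of Stag1, an alternative subunit of the ring, which stood at 8.06 and 8.41 with empty vector and at 9.47 and 8.98 with shRNA1 (0.99 ± 0.23, adjusted p = 0.23).

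Of the 12393 genes, 29 (0.234%) passed the threshold, 12 upwards (0.0968%) and 17 downwards (0.137%). The largest rises were those of Csn2 and of the primary granule proteases Elane and Prtn3, and other genes of granulocytes and monocytes were among the 12. Those that fell included the cell cycle regulators Cdkn2a and Ccnd1, the stress kinase relative Trib3 and the receptor gene Fgfr1. The surface protein gene Plet1 and the cadherin gene Cdh17 also fell. All 29 differed by more than 2-fold, 23 by more than 4-fold, and shRNA1 and empty vector arrays did not overlap in any of them. Another 34 genes had an adjusted p between 0.05 and 0.07. At an unadjusted p under 0.05 there were 1152 genes (9.3%), 478 higher (3.86%) and 674 lower (5.44%), and without overlap between the groups 1885 (15.2%) were higher and 2412 (19.5%) lower. With empty vector replicate 1 left out the count was 124, 47 upwards (0.379%) and 77 downwards (0.621%), and with replicate 2 left out 2534, and each included all 29. With any single shRNA array left out, or in a fit of the 4 arrays alone, no gene passed, against 414 to 830 at an unadjusted p under 0.05.

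**Figure D1:**
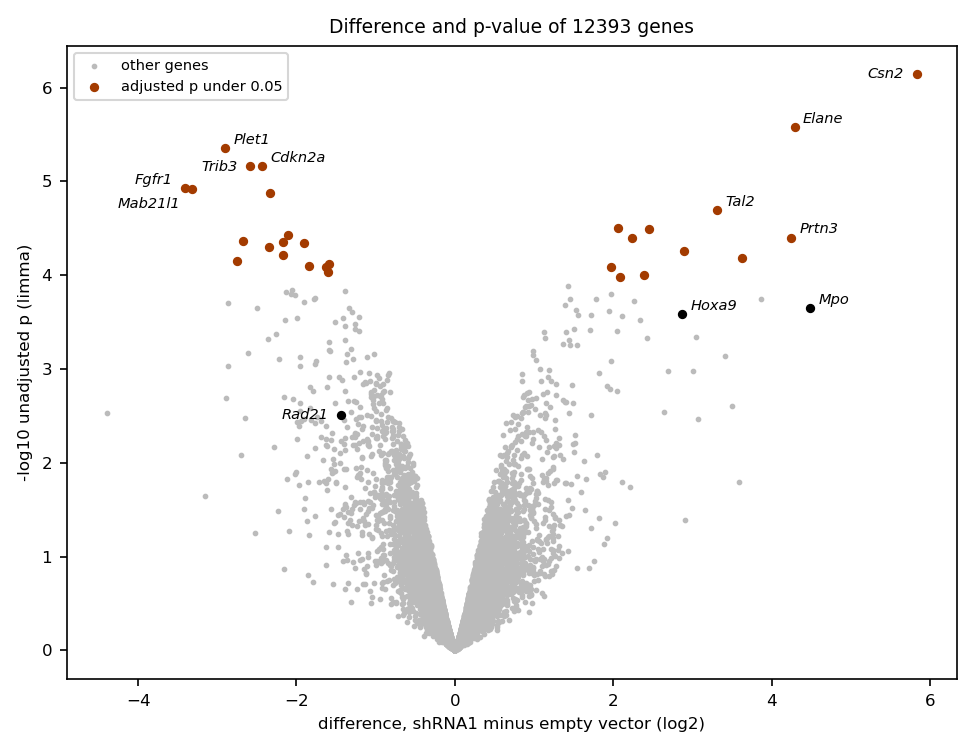
Each point is a gene, with its difference between shRNA1 and empty vector (log2) on the horizontal axis and -log10 of the unadjusted limma p on the vertical axis. The 29 genes past the adjusted threshold are coloured, Csn2 lies farthest to the right at 5.83, and Rad21, Mpo and Hoxa9 (black) are labelled although they did not pass.

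Csn2, which encodes the milk protein beta-casein, had the largest rise. It stood at 6.66 and 6.13 with empty vector and at 11.96 and 12.48 with shRNA1, a 56.9-fold rise (5.83 ± 0.27, adjusted p = 0.00893). Its other probe set gave 5.27 and 5.24 against 11.08 and 11.80, so the groups were far apart on both. Csn2 is known from the mammary gland, where prolactin drives it through Stat5, a factor that cytokine receptors of blood progenitors also activate.

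Elane, the gene of neutrophil elastase, stood at 5.76 and 5.78 with empty vector and at 10.31 and 9.81 with shRNA1. That is a 19.6-fold rise (4.29 ± 0.25, adjusted p = 0.0162). Prtn3, the gene of proteinase 3, rose 18.9-fold, from 7.49 and 7.07 to 12.11 and 10.94 (4.24 ± 0.39, adjusted p = 0.0333). Prtn3 did not pass without the dimmer 50% of genes (adjusted p = 0.0635) or after quantile normalization (0.05055). Elane and Prtn3 lie next to each other on chromosome 10 and were the only neighbouring pair among the 29 genes, which lay on 14 chromosomes.

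The 250 bases before the start of the genes with the 3 largest rises past the threshold are shown. The sequences are from RefSeq on build GRCm38.p6, 5′ to 3′ on the gene's strand. In Csn2 (chr5:87699426-87699675, minus strand) the capitals mark TTCNNNGAA, the core of sites bound by Stat5. In Elane (chr10:79886062-79886311, plus strand) and Prtn3 (chr10:79879417-79879666, plus strand) they mark GAGGAAGT, a form of the purine-rich element bound by the myeloid factor PU.1.
Csn2: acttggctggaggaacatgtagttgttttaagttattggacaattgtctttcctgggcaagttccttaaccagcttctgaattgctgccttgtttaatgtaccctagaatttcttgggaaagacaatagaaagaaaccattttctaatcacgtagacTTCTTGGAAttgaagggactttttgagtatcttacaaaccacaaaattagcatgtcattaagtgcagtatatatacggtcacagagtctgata
Elane: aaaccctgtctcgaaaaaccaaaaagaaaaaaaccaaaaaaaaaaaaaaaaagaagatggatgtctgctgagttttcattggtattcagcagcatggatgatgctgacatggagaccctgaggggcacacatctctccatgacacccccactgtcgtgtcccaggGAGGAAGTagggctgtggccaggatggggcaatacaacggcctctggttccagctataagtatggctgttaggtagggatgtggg
Prtn3: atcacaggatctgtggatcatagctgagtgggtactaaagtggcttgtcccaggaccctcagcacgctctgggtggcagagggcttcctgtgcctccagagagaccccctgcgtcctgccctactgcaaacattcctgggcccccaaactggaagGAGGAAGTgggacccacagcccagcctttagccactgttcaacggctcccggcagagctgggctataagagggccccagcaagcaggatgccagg
The match begins 93 bases before the start of Csn2, 85 before Elane and 95 before Prtn3, and each window holds a single match. Both motifs, which do not overlap in these windows, were chosen after the sequences were seen and were searched on both strands. TTCNNNGAA occurs in 7.02% of 32851 such windows and GAGGAAGT in 2.44%. The called genes were counted by gene, with a match in any window of a gene, so these counts and the shares of windows differ in unit. TTCNNNGAA occurs in 2 of the 12 genes that rose, Csn2 among them, and in 1 of the 11 genes that fell and have a window. GAGGAAGT occurs in 2 of the 12, which are Elane and Prtn3 themselves, and in 0 of the 11. A match is a description of the letters and shows no binding.

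Other genes that rose belong to granulocytes and monocytes. Lcn2, the gene of the iron-siderophore binding protein lipocalin 2 of the later granules, went from 10.51 and 10.69 to 12.81 and 12.52 (2.07 ± 0.18, adjusted p = 0.0333). F13a1, the gene of the coagulation factor XIII A chain made by monocytes and megakaryocytes, rose from 9.31 and 8.95 to 11.80 and 11.36 (2.45 ± 0.22, adjusted p = 0.0333). Plac8, a small cysteine-rich protein gene of myeloid progenitors, rose from 9.32 and 9.62 to 12.20 and 11.51 (2.39 ± 0.26, adjusted p = 0.0442). In each of these the gap between the groups was wider than the spread within either. Gpr84, a receptor for medium-chain fatty acids on myeloid cells, rose from 6.48 and 6.29 to 8.81 and 8.44 (2.24 ± 0.21, adjusted p = 0.0333). Ifitm6, an interferon-induced transmembrane family gene, rose from 8.32 and 8.05 to 11.30 and 10.86 (2.89 ± 0.28, adjusted p = 0.0356).

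The remaining genes that rose have less to do with granules. Tal2, a relative of the blood transcription factor Tal1, stood at 4.96 and 4.18 with empty vector and at 7.97 and 7.80 with shRNA1 (3.31 ± 0.27, adjusted p = 0.028). Myl10, a myosin light chain gene, rose from 5.57 and 6.32 to 10.01 and 9.14 (3.63 ± 0.37, adjusted p = 0.0391). Klrb1f, an NK receptor family gene, rose by 2.09 ± 0.23 and Ptpro, a receptor tyrosine phosphatase gene, by 1.98 ± 0.21. Among the 12 genes that rose, replicate 1 of shRNA1 was higher than replicate 2 in 11, with Csn2 the exception. With the replicate number as a block, Myl10, Plac8, Gpr84, Klrb1f and Ptpro no longer passed (adjusted p from 0.0527 to 0.0559). The next genes by p, which did not pass, were Hpgd, Itgb2l and Ebi3. Hpgd, which degrades prostaglandins, differed by 1.42 (adjusted p = 0.0535). Its dimmer probe set differed by 0.07 and the mean of its probe sets by 0.75 (adjusted p = 0.239). Itgb2l, an integrin gene of neutrophils, differed by 1.98 (adjusted p = 0.0545, but 0.0349 with the replicate block). Ebi3, a subunit of cytokines IL-27 and IL-35, differed by 1.45 (adjusted p = 0.0545).

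**Figure D2:**
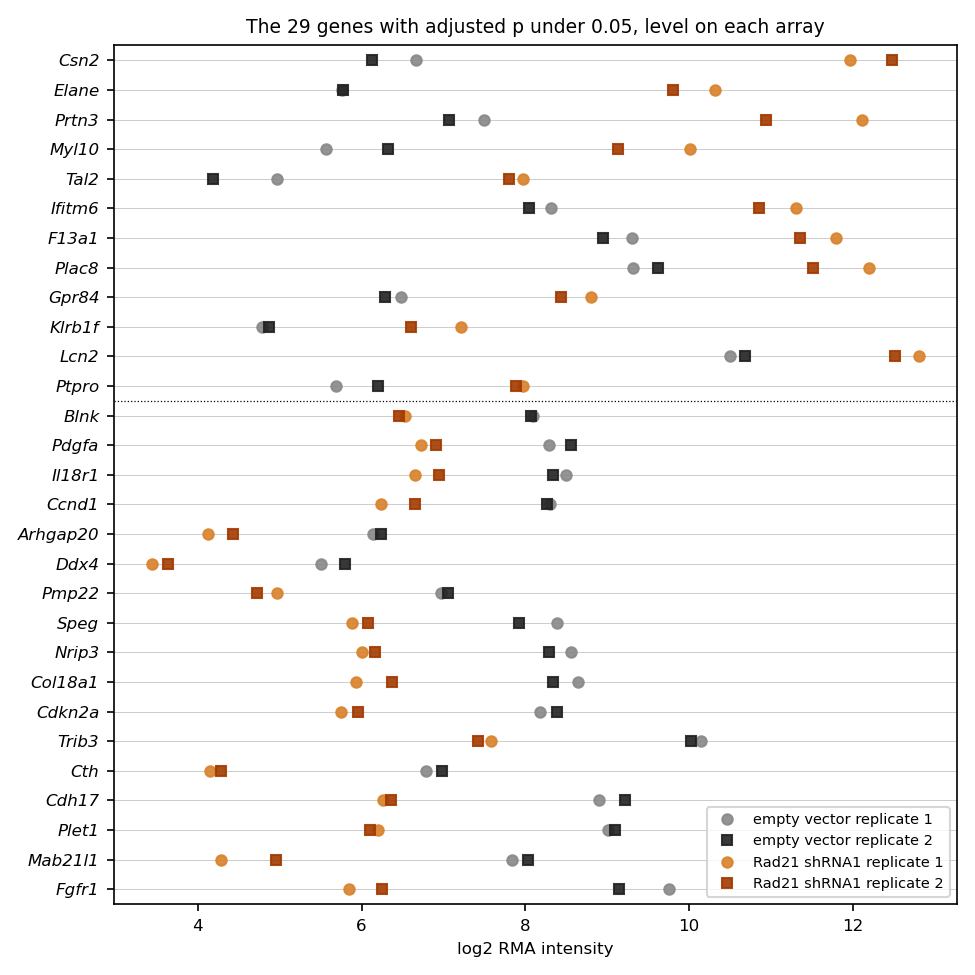
Level of the 29 genes past the threshold on each of the 4 arrays (log2 RMA intensity), 1 row a gene, ordered by the difference, with genes that rose above the dotted line and genes that fell below it. Grey and black points are the empty vector arrays and orange and brown points the shRNA1 arrays; the pairs are separate in every row, from Csn2 at the top to Fgfr1 at the bottom.

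Fgfr1, a fibroblast growth factor receptor gene, had the largest fall. It stood at 9.75 and 9.15 with empty vector and at 5.84 and 6.24 with shRNA1, a 10.6-fold fall (-3.41 ± 0.25, adjusted p = 0.0205). The dimmer Fgfr1 probe set differed by -0.98, at 4.3 and 5.7 with empty vector and 4.0 and 4.1 with shRNA1. Mab21l1, best known from eye development, went from 7.84 and 8.03 to 4.29 and 4.96 (-3.32 ± 0.25, adjusted p = 0.0205). Its dimmer probe set differed by -1.81, with controls at 4.16 and 6.98. On the probe sets that stand for the genes, the shRNA1 arrays lay about as far below the empty vector arrays in both genes.

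A surface protein gene and a cadherin gene were among those that fell. Plet1, a glycosylphosphatidylinositol-anchored surface protein gene of epithelial progenitors, stood at 9.01 and 9.09 with empty vector and at 6.20 and 6.10 with shRNA1 (-2.90 ± 0.18, adjusted p = 0.0171). Its other, dimmer probe set showed no such gap (-0.015). Cdh17, the gene of liver-intestine cadherin, went from 8.90 and 9.22 to 6.26 and 6.36 (-2.75 ± 0.28, adjusted p = 0.0393). The list of cadherins and epithelial junctions was written with earlier results of these data known and also holds the surface protein gene Plet1. Its count is therefore only a description. Of its 24 measured genes, these 2 fell (0.137% of all genes did) and none rose. Its median difference was -0.16 against -0.03 over all genes. Cdh1, the gene of E-cadherin, stood at 11.40 and 11.47 with empty vector and at 8.56 and 9.73 with shRNA1, and did not pass (-2.29 ± 0.56, adjusted p = 0.245). The desmosome gene Pkp2 differed by -2.61 ± 0.40 (adjusted p = 0.0975).

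The cell cycle genes that fell act at the G1 to S transition. Cdkn2a, which encodes the inhibitor p16Ink4a and the p53 activator p19Arf, stood at 8.18 and 8.39 with empty vector and at 5.75 and 5.96 with shRNA1, a 5.39-fold fall (-2.43 ± 0.16, adjusted p = 0.0171). Ccnd1, the gene of cyclin D1, which activates the kinases Cdk4 and Cdk6, went from 8.30 and 8.27 to 6.24 and 6.65 (-1.84 ± 0.19, adjusted p = 0.0393). In both, the spread within a group was small beside the gap. The neighbouring inhibitor gene Cdkn2b stood at 8.10 and 8.49 against 6.48 and 6.97 and did not pass (-1.57 ± 0.24, adjusted p = 0.0947). Cdkn1a, the gene of p21 and a target of p53, stood at 11.98 and 11.76 against 10.86 and 11.15 (-0.87 ± 0.19, adjusted p = 0.211). Of 20 measured G1 cyclins, kinases and inhibitors, 2 fell (0.137% of all genes) and none rose. Without overlap 8 lay lower and 3 higher, where 19.5% and 15.2% of all genes did. None of 17 measured p53 target genes passed, and 15 had a negative difference (6838 of all 12393 genes did), with a median of -0.45.

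Trib3, a pseudokinase gene induced by the stress factors Atf4 and Ddit3, stood at 10.15 and 10.03 with empty vector and at 7.59 and 7.42 with shRNA1, a 6.0-fold fall (-2.58 ± 0.17, adjusted p = 0.0171). Cth, which makes cysteine from cystathionine, went from 6.79 and 6.99 to 4.15 and 4.29 (-2.67 ± 0.25, adjusted p = 0.0333). In both the shRNA1 arrays lay more than 2 log2 units below either empty vector array. Of 20 measured genes of the integrated stress response and amino acid supply, Trib3 fell (0.137% of all genes did) and none rose. Of the 20, 11 lay lower without overlap (19.5% of all genes did) and none higher, with a median of -0.52. Slc7a5, a large neutral amino acid carrier gene, stood at 11.41 and 10.94 against 9.13 and 9.41 (-1.90 ± 0.23, adjusted p = 0.0552). Asns, the asparagine synthetase gene, differed by -1.10 ± 0.26 and Slc3a2, the partner chain of Slc7a5, by -0.77 ± 0.20 (adjusted p of 0.234 and 0.27). Slc3a2 was named after its value was seen. Slc7a11, the cystine carrier, had the highest difference of the list at 0.48 (adjusted p = 0.766).

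**Figure D3:**
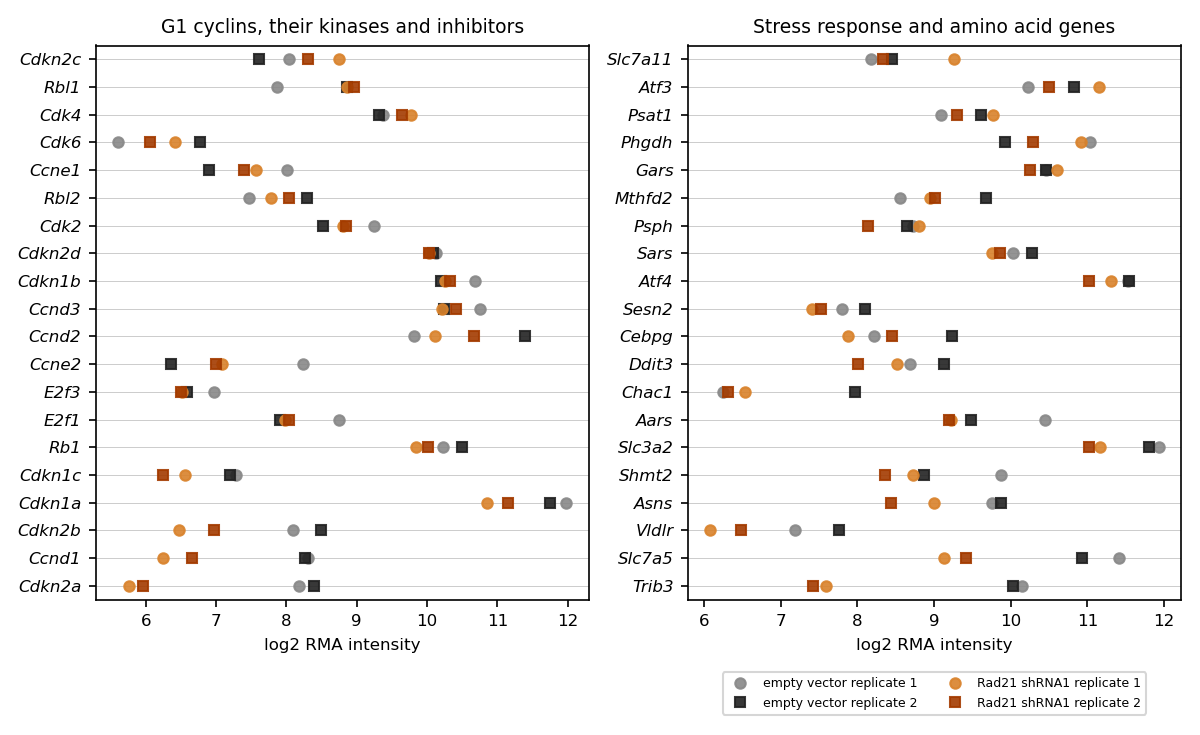
Level on each of the 4 arrays (log2 RMA intensity) of 20 G1 cyclin, kinase and inhibitor genes (left) and 20 genes of the integrated stress response and amino acid supply (right), ordered by difference. Grey and black points are empty vector and orange and brown points shRNA1; Cdkn2a, Ccnd1 and Trib3 are the members past the threshold.

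The other genes that fell were of varied kinds. Col18a1, a collagen gene of basement membranes, fell by 2.34 ± 0.22 on the log2 scale, and so did Nrip3 (-2.34 ± 0.18). Speg, a muscle kinase gene, fell by 2.18 ± 0.20, with smaller negative differences (-0.63 to -0.27) in its other 3 probe sets. Pmp22, a myelin protein gene, fell by 2.17 ± 0.21 and Ddx4, a germ cell RNA helicase gene, by 2.11 ± 0.19. Il18r1, a chain of the interleukin 18 receptor, fell by 1.63 ± 0.17. Pdgfa, a platelet-derived growth factor chain (-1.61), also passed and is named after its value was seen. Blnk, an adaptor of the B cell receptor, went from 8.10 and 8.08 to 6.54 and 6.45 (-1.59 ± 0.16, adjusted p = 0.0393). With the replicate number as a block, Col18a1, Speg, Pmp22, Ddx4, Ccnd1, Il18r1, Pdgfa and Blnk no longer passed (adjusted p of 0.0527 to 0.0547). Across the 29 genes, 12 have other probe sets, 16 in all, and the sign of the difference was the same in all 16, though near 0 for Plet1. With the mean of a gene's probe sets, 6 of the 29 no longer passed: Mab21l1 (-2.56, adjusted p = 0.149), Speg (-0.85, 0.121), Col18a1 (-1.68, 0.084), Ptpro (1.65, 0.0592), Plet1 (-1.46, 0.0555) and Ccnd1 (-1.97, 0.0534). Fgfr1 still passed with a smaller difference (-2.19).

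The 2 lists of neutrophil granule genes had the highest medians of the 31 lists. Of 13 measured genes of the primary granules and their precursors, Elane, Prtn3 and Plac8 rose and none fell (0.0968% of all genes rose). Of the 13, 10 lay higher without overlap, against 15.2% of all genes, and the median difference was 2.05. Mpo, the gene of myeloperoxidase, had the highest difference: it stood at 7.13 and 6.11 with empty vector and at 11.89 and 10.32 with shRNA1 (4.49 ± 0.56). Its arrays lay over 1 log2 unit apart within each group, and it did not pass (adjusted p = 0.0582) but did with the replicate block (0.0352). Ctsg, the gene of cathepsin G, stood at 10.09 and 10.32 against 12.67 and 11.85 (2.05 ± 0.28, adjusted p = 0.0719). Ms4a3, a cell cycle regulator of granulocyte and monocyte progenitors, stood at 7.81 and 5.83 against 10.93 and 9.71 (3.50 ± 0.70, adjusted p = 0.17). Nkg7, a granule membrane protein gene, differed by 1.78 ± 0.21 (adjusted p = 0.0545). The chaperone gene Calr had the lowest difference of the list, -0.25.

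Of 15 measured genes of the later granules and of maturing neutrophils, Lcn2 rose (0.0968% of all genes did) and none fell, 12 lay higher without overlap (15.2%) and the median was 1.60. Hp, which did not pass, had the highest difference of the list, 3.07. The empty vector arrays disagreed in Camp, Ltf and Ngp, which are named after their values were seen. Camp, the gene of the cathelicidin peptide, stood at 11.26 and 7.49 with empty vector and at 12.49 and 12.08 with shRNA1. Ltf, the lactoferrin gene, stood at 11.23 and 8.97 against 12.43 and 12.18, and Ngp, the neutrophilic granule protein gene, at 12.56 and 10.90 against 13.42 and 13.24. The shRNA1 arrays were above both controls in all 3 genes, but most of the gap was to replicate 2. Left out in turn, the empty vector arrays gave a list median of 1.24 (without replicate 1) or 0.75 (without replicate 2). For the primary granule list the corresponding medians were 1.76 and 2.17. Mmp8, the neutrophil collagenase gene, stood at 9.73 and 11.20 against 12.10 and 12.42 (1.79 ± 0.46, adjusted p = 0.27).

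**Figure D4:**
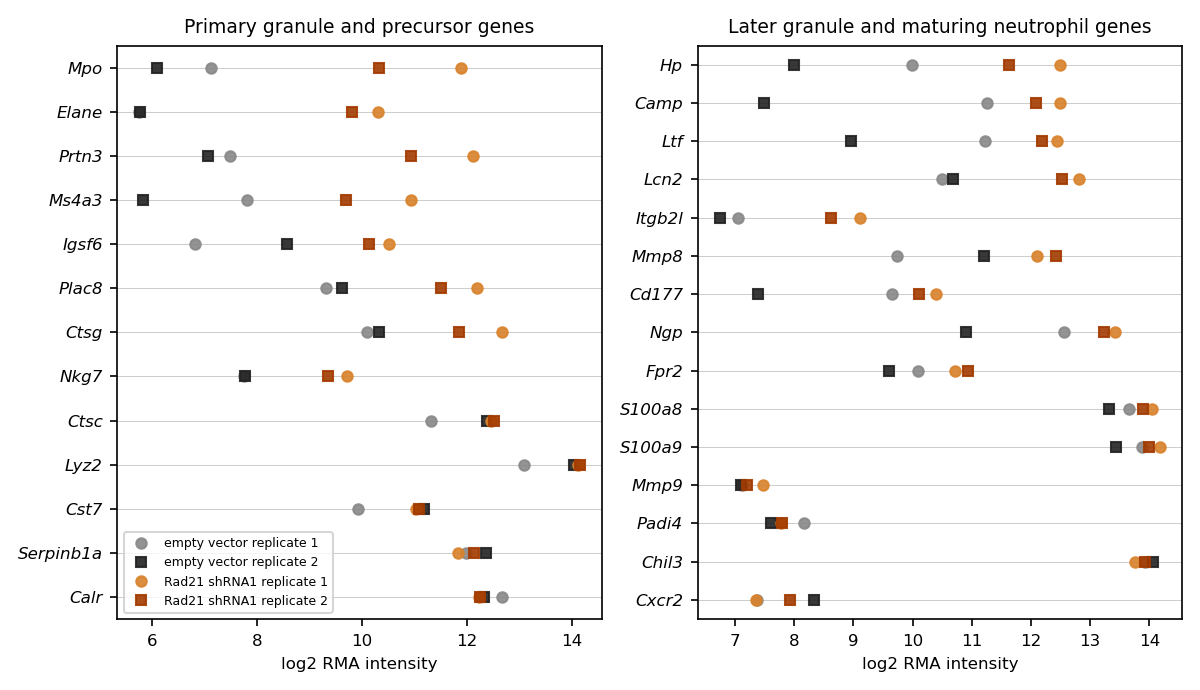
Level on each of the 4 arrays (log2 RMA intensity) of 13 primary granule and precursor genes (left) and 15 later granule and maturing neutrophil genes (right), ordered by difference. Grey and black points are the empty vector arrays and orange and brown points the shRNA1 arrays; the controls lie close together for Elane and Lcn2 and far apart for Camp and Ltf.

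Monocyte and macrophage genes went both ways. F13a1 was the only one of 30 to pass (0.0968% of all genes rose), and the list's median was 0.03 (-0.22 without empty vector replicate 1 and 0.33 without replicate 2). Fcgr1, the high-affinity receptor for IgG, stood at 6.02 and 6.52 with empty vector and at 9.0 and 8.23 with shRNA1 (2.34 ± 0.31, adjusted p = 0.0615). Csf1r, the receptor for the macrophage growth factor, stood at 11.27 and 11.65 against 12.48 and 12.31 (0.94 ± 0.19, adjusted p = 0.17). Marco, a scavenger receptor, went the other way, at 8.44 and 7.52 against 5.84 and 6.46 (-1.83 ± 0.37, adjusted p = 0.171). The class thus held members on either side, none but F13a1 past the threshold.

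Mast cell and basophil genes had negative differences in 16 of 17 (6838 of all 12393 genes did). None passed, 8 had an unadjusted p under 0.05 (5.44% of all genes were lower at that level), 10 lay lower without overlap (19.5%) and none higher. Their median was -1.06. Mcpt2, a mast cell protease gene, stood at 10.29 and 10.33 with empty vector and at 7.87 and 8.45 with shRNA1 (-2.15 ± 0.28, adjusted p = 0.0615). Kit, the receptor for stem cell factor on mast cells and progenitors, stood at 11.00 and 11.10 against 8.93 and 9.65 (-1.76 ± 0.29, adjusted p = 0.11), and Gata2, a transcription factor shared by both, at 11.98 and 11.54 against 10.36 and 10.97 (-1.10 ± 0.27, adjusted p = 0.242). In all 3 genes replicate 1 of shRNA1 lay farther from the controls than replicate 2.

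Megakaryocyte and platelet genes gave a like count. None of 17 passed, 9 lay lower without overlap (19.5% of all genes) and 1 higher (15.2%), and the median was -0.66. Gp1bb, a chain of the receptor for von Willebrand factor, stood at 9.88 and 9.45 against 7.14 and 8.37 (-1.91 ± 0.40, adjusted p = 0.192). Itga2b, the integrin chain CD41, stood at 12.03 and 11.28 against 9.68 and 10.59 (-1.52 ± 0.38, adjusted p = 0.252). Thbs1, the thrombospondin gene, stood at 8.80 and 10.69 against 11.09 and 11.10 (1.35, or 0.40 without empty vector replicate 1 and 2.30 without replicate 2).

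Erythroid genes were higher on empty vector replicate 1 than on the other arrays. The average of 24 erythroid and heme genes was 8.89 on that array and 7.51, 7.46 and 7.49 on empty vector replicate 2 and the shRNA1 arrays. The median difference was -0.64 against both controls, 0.00 without replicate 1 and -1.12 without replicate 2, and no member passed. Rhag, a gene of the red cell Rhesus complex, stood at 9.38 and 6.06 with empty vector and at 5.36 and 5.04 with shRNA1. Gata1, the master factor of red cells and megakaryocytes, stood at 10.61 and 9.37 against 8.35 and 9.01 (-1.31 ± 0.43, adjusted p = 0.424). Of 7 eosinophil genes none passed and 2 lay lower without overlap (19.5% of all genes).

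Markers of lymphoid and stromal cells were also listed. Brightness differs between probe sets and detection calls were not used, so the levels below cannot show whether such cells were present. Over the 4 arrays the mean log2 level lay from 5.23 to 5.57 for 15 B cell genes, from 5.68 to 6.11 for 14 T and NK cell genes and from 5.36 to 5.69 for 17 stromal and endothelial genes, with 7.10 to 7.14 over all genes. Blnk, which macrophages can also express, was the only member of these lists to pass. Of 18 genes of dendritic cells and MHC class II none passed, 10 lay lower without overlap (19.5% of all genes) and 2 higher (15.2%). Ccl17, a dendritic cell chemokine, stood at 8.53 and 9.98 with empty vector and at 6.15 and 6.65 with shRNA1 (-2.86 ± 0.47, adjusted p = 0.115).

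Among transcription factors, Hoxa9, a homeobox gene of progenitor self-renewal, stood at 5.74 and 6.91 with empty vector and at 9.17 and 9.22 with shRNA1. Its difference of 2.87 ± 0.37 did not pass (adjusted p = 0.061). The difference was 2.29 without empty vector replicate 1 and 3.46 without replicate 2. Hoxa9 passed with an intensity trend (adjusted p = 0.0426) and with the mean of its probe sets (1.88, 0.0396), of which the dimmer one differed by 0.89. The other 10 measured Hoxa genes and partners lay between -0.63 (Meis1) and 0.71 (Hoxa5), and the list's median was 0.14. None of 24 stem and progenitor genes, 24 myeloid transcription factors, 23 Polycomb group genes or 20 cytokine receptor and signalling genes passed, with medians of -0.04, -0.09, -0.07 and 0.00. The myeloid transcription factors ran from -1.37 (Fosb) to 1.82 (Id3). Cebpd and Egr1 are named after their values were seen. Cebpd, a factor of granulocyte maturation, stood at 7.80 and 8.03 against 8.96 and 9.24 (1.19 ± 0.29, adjusted p = 0.245). The immediate early gene Egr1 stood at 13.27 and 12.67 against 11.42 and 12.01 (-1.25 ± 0.29, adjusted p = 0.226).

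Mitosis genes mostly had positive differences. None of 30 passed, 29 had a positive difference (44.8% of all genes did), 12 lay higher without overlap (15.2%) and none lower, and the median was 0.51. Aurkb, the kinase of the chromosomal passenger complex, stood at 6.85 and 7.01 with empty vector and at 8.70 and 8.27 with shRNA1 (1.56 ± 0.20, adjusted p = 0.061). Ccnb2, a B-type cyclin gene, stood at 8.14 and 7.90 against 9.75 and 9.35 (1.53 ± 0.19, adjusted p = 0.0588), and Kif20a, a kinesin gene of cytokinesis, at 6.45 and 6.45 against 8.00 and 7.68 (1.39 ± 0.17, adjusted p = 0.0572). These 3 had controls close together, whereas the list as a whole depended on the control used. Its median was 1.13 without empty vector replicate 1 and 0.10 without replicate 2. Of 30 DNA replication genes none passed, and their median of 0.05 became 0.60 without replicate 1 and -0.45 without replicate 2.

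Interferon-stimulated genes mostly had negative differences, 26 of 30 (6838 of all 12393 genes did). None passed, 10 were lower at an unadjusted p under 0.05 (5.44% of all genes), 14 lay lower without overlap (19.5%) and none higher, and the median was -0.45. Ifit1, an antiviral RNA-binding protein gene, stood at 9.0 and 8.0 with empty vector and at 5.48 and 5.79 with shRNA1 (-2.86 ± 0.35, adjusted p = 0.0552). Rsad2, the gene of viperin, stood at 11.69 and 10.08 against 7.79 and 8.19 (-2.89 ± 0.55, adjusted p = 0.158), and Oasl2 at 7.39 and 7.67 against 4.82 and 5.73 (-2.26 ± 0.32, adjusted p = 0.0743). The controls differed among themselves by more than 1 log2 unit for Ifit1 and Rsad2, and both controls lay above both shRNA1 arrays. Ifitm6, which rose, carries the interferon family's name and was not on this list.

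Genes of hypoxia and glycolysis had small positive differences. None of 17 passed, all 17 had a positive difference (44.8% of all genes), 13 lay higher without overlap (15.2%) and none lower, and the median of 0.50 was 0.54 and 0.44 without either empty vector array. Bnip3, a mitophagy gene induced by low oxygen, stood at 10.79 and 10.38 with empty vector and at 11.56 and 11.46 with shRNA1 (0.93 ± 0.19, adjusted p = 0.181). Pgk1, a glycolytic kinase gene, stood at 12.39 and 12.26 against 13.19 and 12.97 (0.75 ± 0.16, adjusted p = 0.189). Differences ran from 0.03 to 1.15 over the list.

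None of 24 chemokine and inflammatory cytokine genes, 15 matrix metalloproteinases and inhibitors, 16 cholesterol synthesis genes, 21 Myc and ribosome assembly genes or 35 lysosome genes passed. Their medians were -0.14, -0.14, 0.06, 0.08 and -0.05 against both controls. Without empty vector replicate 1 they were -0.35, -0.05, 0.28, 0.30 and -0.23, and without replicate 2 they were 0.09, -0.20, -0.16, -0.23 and 0.23, so that 4 of the 5 lists, all but the proteinases, changed sign with the control used. Within the proteinase list Mmp13, a collagenase gene, stood at 10.71 and 11.62 with empty vector and at 8.31 and 8.62 with shRNA1 (-2.70 ± 0.69, adjusted p = 0.27). Within the lysosome list Atp6v0a1, a subunit of the proton pump, stood at 9.81 and 9.06 against 7.82 and 7.87 (-1.58 ± 0.27, adjusted p = 0.131).

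**Figure D5:**
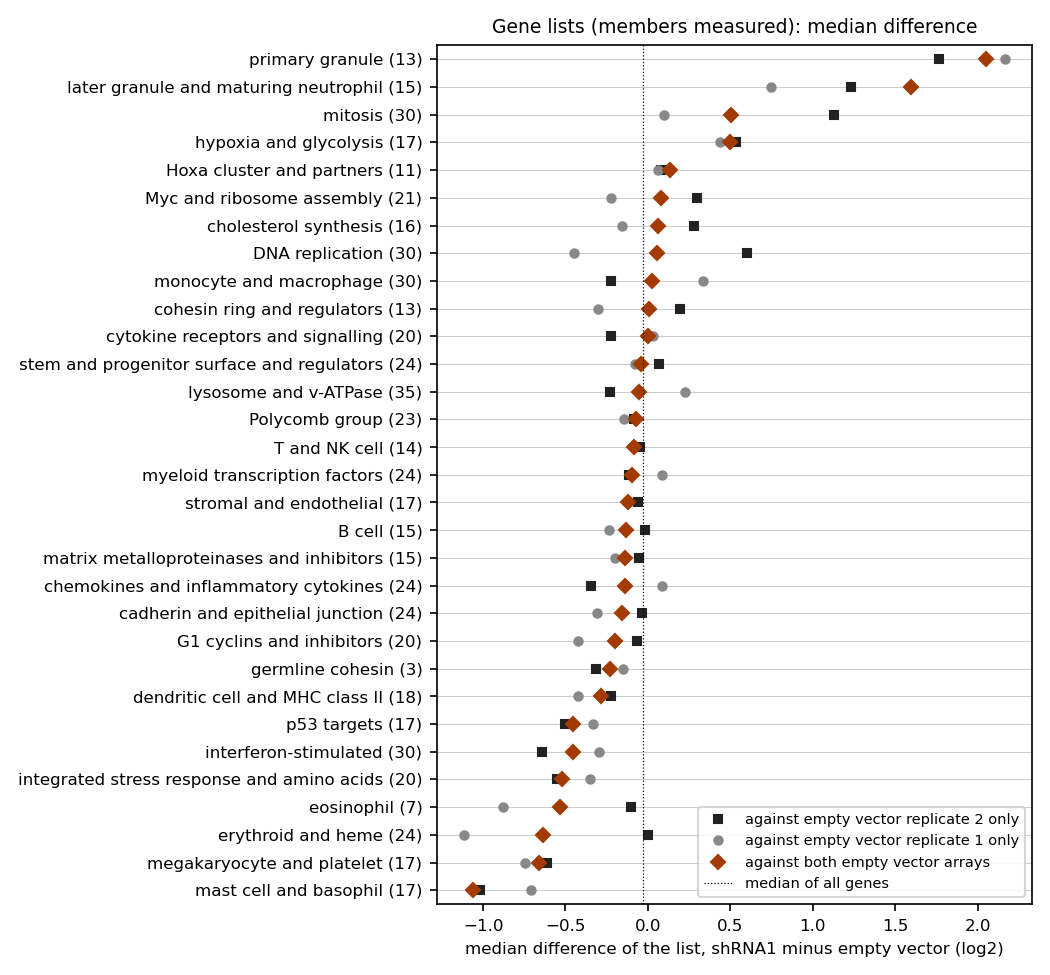
Median difference of each gene list between shRNA1 and empty vector (log2), with the number of measured members in brackets. Diamonds use both empty vector arrays, squares only replicate 2 and circles only replicate 1, and the dotted line is the median of all genes; the primary granule list stays near 2 with either control, while the erythroid, mitosis and DNA replication lists shift between controls.

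A last comparison asked whether the hairpins differed from each other. Rad21 read 9.63 and 9.14 for shRNA1 and 9.50 and 9.11 for shRNA2, a difference of 0.08 ± 0.30. No gene passed in the fit of all 6 arrays, against 606 (4.89%) at an unadjusted p under 0.05. In a fit of the 4 hairpin arrays alone, 44 genes (0.355%) passed and all 44 were higher with shRNA1. Both comparisons with empty vector share the control arrays, so their values are set side by side only. Csn2 differed from empty vector by 5.83 with shRNA1 and 4.16 with shRNA2, Elane by 4.29 and 5.67, Plet1 by -2.90 and -4.59 and Cdkn2a by -2.43 and -2.27. Of these 4 genes only Plet1 differed between the hairpins in the fit of the 4 arrays (1.69 ± 0.18, adjusted p = 0.0397).

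The smallest p-values between the hairpins with shRNA1 higher belonged to Fabp4, Plet1, Colec12, Olfm1 and Il1b. Fabp4, a fatty acid binding protein gene of macrophages and fat cells, stood at 10.42 and 10.82 with empty vector, 9.38 and 10.02 in the shRNA1 group and 6.21 and 6.52 in the shRNA2 group. The hairpins differed by 3.34 ± 0.28 (adjusted p of 0.204 with all arrays). Colec12, a scavenger receptor gene, read 8.57 and 9.07 for shRNA1 but 5.74 and 6.32 for shRNA2 (2.79 ± 0.28), and Il1b, the interleukin 1 beta gene, at 10.36 and 10.49 against 8.81 and 9.05 (1.5 ± 0.17). Olfm1, a secreted glycoprotein gene of neurons, stood at 10.08 and 10.52 against 8.35 and 8.43 (1.91 ± 0.19). Named after their values were seen, the macrophage genes Cd36 (2.24), Msr1 (1.68) and Lpl (1.65) and the monocyte factor Irf8 (1.51) were also among the 44. In the other direction the smallest p-values belonged to Nhsl1 (-0.99), Muc13 (-0.82), Elane (-1.38), Crisp3 (-1.97) and Tex2 (-1.0), of which none passed in either fit.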

How the data were processed

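RNA of 6 samples was measured on Affymetrix arrays. The authors deposited 1 RMA intensity per probe set and array, per the submitters' processing notes, in a table of 22690 probe sets on a linear scale (4.96 to 20614.6). RMA corrects background, quantile-normalizes and summarises probes, which compresses dim differences and hides changes in total RNA. The sources used here give no version, array build or statement on joint processing, and detection calls were not used here. log2 was taken, with no pseudocount or filter. Per the platform annotation 20393 probe sets have 1 gene, 691 several and 1606 are not listed. After 64 control probe sets (13 with a gene) were left out, 20380 remained, 20351 of them found in RefSeq GRCm38.p6. A gene was represented by its brightest probe set on average (12393 genes, 4956 with several probe sets).

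limma 3.58.1 (R 4.3.3) was fitted once to 3 groups of 2 arrays (3 residual and 2.91 prior degrees of freedom), two-sided, with Benjamini-Hochberg adjustment over all genes at 0.05. It was tested on simulated data in which a gene's spread was the same in all groups and arrays varied independently. That test therefore does not cover the wider spread of the empty vector arrays or deviations shared between the hairpins. Tables used Python 3.11.15 with numpy 2.4.6 and pandas 2.3.3, plots matplotlib 3.10.9. The number of arrays limits the precision.

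The comparison and the 31 gene lists (680 entries, 604 measured) were chosen with earlier results of these data known, so their counts are descriptions. Named were Rad21, the 15 largest rises and falls past the threshold without overlap (places left by smallest p), up to 4 members of each list by p with its extremes, and the 5 smallest p in each direction between hairpins. Members of the primary granule, cohesin, Hoxa and interferon lists could all be named. Other genes, Camp, Ltf, Ngp, Slc3a2, Cebpd and Egr1 among them, are said to be named after their values were seen. The values of 1 gene that fell are not reported here. Deviations of replicate 1 from the group mean correlated weakly between empty vector and the hairpins (0.199 with shRNA1, 0.148 with shRNA2). Between the hairpins the correlation was 0.578. The labels give only the numbers, so whether they mark pairs is unknown. The main fit and its standard errors used no replicate block, and the block was an alternative. With it, 16 of the genes called in the main fit still passed. The blocked value is given for the called genes that no longer passed, and for some named genes that passed only with it. Alternatives were filters on dim genes, the mean of probe sets, quantile normalization, centring, the block, an intensity trend, robust settings, a fit of 4 arrays and each array left out. All probe sets were also fitted without picking 1 per gene. In that fit 11 of the 20380 probe sets with a single gene passed, 3 upwards and 8 downwards. None of the 691 with several genes or the 1555 not listed passed.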

Additional observations from a re-analysis of the deposited data

Results flagged for a closer look

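Among the genes named here, 4 had both shRNA1 arrays on one side of the empty vector arrays and both shRNA2 arrays on the other side. Colec12, the scavenger receptor gene, lay above the controls with shRNA1 and below them with shRNA2, and the hairpins differed by 2.79 ± 0.28 (limma adjusted p = 0.204). The same held for Il1b (difference 1.5 ± 0.17, adjusted p = 0.204) and for Irf8, a factor of monocyte and dendritic cell development (1.51 ± 0.24, adjusted p = 0.297). Muc13, a transmembrane mucin gene, went the other way (-0.82 ± 0.15, adjusted p = 0.359). None of these differences passed over all genes in the fit of 6 arrays, and Colec12, Il1b and Irf8 passed in the fit of the 4 hairpin arrays.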

How the results depend on the processing

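The count of genes past the threshold between shRNA1 and empty vector (29) was 25 without the dimmest 25% of genes, 24 with the mean of probe sets and 29 after centring or with robust settings. It was 3 without the dimmer 50% of genes, a fit that leaves out 18 of the 29. Of those kept in it, Prtn3, Lcn2, F13a1, Gpr84, Ifitm6, Myl10, Plac8 and Il18r1 no longer passed (adjusted p from 0.0635 to 0.088). After quantile normalization the count was 17 (6 upwards and 11 downwards, all among the 29). Prtn3, Plac8, Ifitm6, Myl10, Klrb1f, Ptpro, Ccnd1, Speg, Pmp22, Ddx4, Il18r1 and Pdgfa no longer passed there (adjusted p from 0.05055 to 0.066). The count was 59 with an intensity trend and 0 in the fit of 4 arrays. The cause of these shifts was not tested. With the replicate block the count was 23, 16 of them among the 29. Left out in turn, single arrays gave 0 to 2534, where a lone control array is assumed to vary like the other groups. Between the hairpins the count of 0 became 44 in the fit of 4 arrays, and 0 to 44 with single arrays left out. The Rad21 difference ran from -1.76 (without empty vector replicate 2) to -1.11 (without replicate 1). No gene named for its difference from empty vector changed sign under any alternative tried. Signal over background was not used here, and 18 of the 29 genes lie among the dimmer 50% by mean intensity, where RMA compresses differences.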

Other observations

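Several of the widest gaps between shRNA1 and empty vector did not pass, and these genes are named after their values were seen. Rbp4, the gene of the plasma retinol carrier, had the lowest difference of all genes. It stood at 10.35 and 12.80 with empty vector and at 6.37 and 7.99 with shRNA1 (-4.39 ± 0.90, limma adjusted p = 0.184), so that the groups did not overlap although each spread widely. Il3, a growth factor of mast cells and progenitors, stood at 5.61 and 9.10 against 4.03 and 4.37 (-3.16 ± 1.03, adjusted p = 0.42). Cybb, a subunit of the oxidase of phagocytes, stood at 4.86 and 8.40 against 10.57 and 9.88 (3.59 ± 1.08, adjusted p = 0.363).

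The next 3 genes, better known from liver secretion and skin, are also named after their values were seen. No set of such genes was counted. Ambp, which encodes a plasma microglobulin precursor, stood at 5.80 and 5.07 with empty vector and at 9.93 and 8.68 with shRNA1 (3.87 ± 0.47, limma adjusted p = 0.0545). Lbp, the gene of the lipopolysaccharide-binding protein, stood at 5.42 and 6.63 against 9.43 and 8.71 (3.04 ± 0.44, adjusted p = 0.0786). Dmkn, the dermokine gene of skin, stood at 5.67 and 6.99 against 10.28 and 9.21 (3.42 ± 0.53, adjusted p = 0.0997). In all 3 the shRNA1 arrays lay far above both controls, and none passed over all genes.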
